A study of Mus musculus with 15 samples.

Results

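The imprinted growth genes examined here were H19, Meg3, Grb10, Mest, Peg3, Plagl1, Dlk1, Sgce, Ndn and Gnas. They were found by matching the Ensembl transcript that names each row of the deposited expression table to its gene. All 10 genes had 1 row each among the 12089 transcripts in the table, and all 10 passed the filter on low values. The study followed dental mesenchymal cells of the mouse (mDMCs) as they were taken from the tooth germ into culture, to ask what changes while their ability to support tooth formation is tested, and the imprinted genes are followed here over the same hours. The mDMCs came from the mandibular first molars of ICR mouse embryos at E14.5, were freed from the mesenchyme with trypsin, and grew in DMEM with foetal bovine serum. RNA-seq libraries were made from freshly isolated cells (0 h, n = 3) and from cells cultured for 12 h (n = 2), 24 h (n = 3), 36 h (n = 3) and 48 h (n = 3), and from the intact dental mesenchyme (n = 1). No gene was altered and no agent beyond the serum medium was given in any group. The labels do not say whether libraries of a time point came from separate litters or cultures, so that the p-values below measure the spread between these libraries, which may be technical.

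Imprinted genes are transcribed mainly from the copy inherited from 1 parent, because DNA methylation laid down in the egg or sperm marks the copies differently. Many of them act on embryonic growth, and several fall silent in most tissues around and after birth. Mest, Peg3, Plagl1, Dlk1, Sgce and Ndn are transcribed mainly from the paternal copy, and H19, Meg3 and, in most tissues, Grb10 from the maternal copy. Gnas is a compound locus with maternal, paternal and biallelic transcripts. The libraries do not separate the parental copies, so that every value below is the sum of both.

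Promoters are shown here for the 3 paternally expressed genes whose deposited values fell furthest (Mest, Peg3, Plagl1), for the maternally expressed Meg3, and for Ndn as the member with the steadiest values. Each sequence holds the 250 bases before a RefSeq start site, 5′ to 3′ on the strand of the gene (RefSeq sequence, build GRCm38.p6, the same assembly as mm10). Where RefSeq gave several starts, the window with the most CpG dinucleotides was taken. Capitals mark matches, on either strand, to TGCCGC, the hexamer read by the imprint-protecting zinc finger protein Zfp57 when its CpG is methylated, to GGGGCCCC, a motif bound by Plagl1, or to CCATNTT, the core bound by Yy1. The windows are Mest at chr6:30737800-30738049 (+), Peg3 at chr7:6730420-6730669 (-), Plagl1 at chr10:13090582-13090831 (+), Meg3 at chr12:109540746-109540995 (+) and Ndn at chr7:62348027-62348276 (+). The Ndn window lies before the RefSeq start but inside the longer exon of the transcript that names its row, and the Plagl1 window runs into the start of its row transcript.
Mest: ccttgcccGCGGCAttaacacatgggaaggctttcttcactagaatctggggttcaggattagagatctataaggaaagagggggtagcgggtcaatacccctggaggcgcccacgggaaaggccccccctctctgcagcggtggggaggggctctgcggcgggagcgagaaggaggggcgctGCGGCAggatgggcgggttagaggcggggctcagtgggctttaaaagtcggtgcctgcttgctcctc
Peg3: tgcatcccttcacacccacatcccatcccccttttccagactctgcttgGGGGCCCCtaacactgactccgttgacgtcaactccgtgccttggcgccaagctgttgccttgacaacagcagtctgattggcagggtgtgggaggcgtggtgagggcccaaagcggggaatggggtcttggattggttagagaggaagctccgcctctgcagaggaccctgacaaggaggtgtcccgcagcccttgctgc
Plagl1: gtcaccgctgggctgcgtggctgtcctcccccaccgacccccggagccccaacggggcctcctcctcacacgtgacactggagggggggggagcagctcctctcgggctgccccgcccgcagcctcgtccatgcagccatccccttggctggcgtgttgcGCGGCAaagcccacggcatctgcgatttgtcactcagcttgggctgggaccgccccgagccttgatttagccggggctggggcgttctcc
Meg3: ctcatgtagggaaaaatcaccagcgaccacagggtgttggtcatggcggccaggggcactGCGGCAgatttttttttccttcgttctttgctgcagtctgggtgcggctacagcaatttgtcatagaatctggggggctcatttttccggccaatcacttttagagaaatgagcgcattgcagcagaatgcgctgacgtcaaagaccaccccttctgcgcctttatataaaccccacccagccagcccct
Ndn: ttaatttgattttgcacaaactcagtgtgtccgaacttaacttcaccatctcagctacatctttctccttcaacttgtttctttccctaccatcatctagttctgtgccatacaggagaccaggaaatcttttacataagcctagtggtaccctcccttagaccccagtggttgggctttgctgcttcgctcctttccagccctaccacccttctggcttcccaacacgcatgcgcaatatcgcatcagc

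Windows were found for 8 of the members. The Zfp57 hexamer was present in the windows of Mest (2 matches), Plagl1 (1 match) and Meg3 (1 match), and 9.14% of the windows of 27025 genes held it. The Plagl1 motif was present once in the Peg3 window, against 0.914% of all genes, and no printed window held matches to more than 1 of the motifs. CCATNTT was found in none of the 8 member windows and in 12.4% of all windows. The member windows held a median of 12 CpG dinucleotides against 6 over all genes, from 5 in Ndn to 40 in Grb10. A match describes these letters alone and does not mark a bound site.

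The deposited values are whole numbers on a normalised scale on which all 15 libraries share nearly the same distribution, with a median of 721, a largest value of 127101 and totals from 21357605 to 21365980. The sequencing depth behind them is unknown, and whether they were divided by transcript length is not stated. Values are therefore compared within a gene. The ranks in a library and the summed markers set genes side by side and carry this limit. The highest ranks came in sets of 10 transcripts with nearly the same value. In every library 10 transcripts stood at 127101, the next 10 between 70508 and 70809, the next between 50354 and 50602, the next between 40594 and 40739 and the fifth set between 36325 and 36491. H19 and Grb10 lay in these ranks and moved in steps. Steps of 10 ranks reached further down the scale, where the ranks of Gnas and of Ndn differed between mDMC libraries by multiples of 10 throughout, as did those of Mest and Peg3 at 0 h. Equal or near-equal values in replicates therefore understate the spread and the standard errors of these genes. Changes are given as log2(value + 1) differences from limma, fitted over the 14 mDMC libraries, with a call at an adjusted p under 0.05 (Benjamini-Hochberg over 12079 transcripts).

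Cultured mDMCs had lower values than freshly isolated cells for most of the imprinted growth genes. At 12 h, 5 members were lower (Mest, Peg3, Meg3, Gnas, H19) and 0 were higher, where 28.3% of all transcripts tested were lower and 29.9% higher. At 24 h, 6 were lower and 0 higher (31.8% and 35% of all transcripts), with Plagl1 added to the genes of 12 h. At 36 h, 8 were lower and 1, Sgce, was higher (34% and 36%), with Dlk1 and Grb10 added. At 48 h, the same 8 genes were lower and 0 were higher (34% and 37.1%), and in all 8 every 48 h library lay below every 0 h library, which 34.6% of all transcripts did. The change was over 2-fold downward for 3, 4, 6 and 7 members at 12, 24, 36 and 48 h, against 12%, 14.1%, 15.5% and 15.8% of all transcripts. By the threshold of the methods, an unadjusted p under 0.05 and a change over 2-fold, 3 members were lower at 12 h (12.1% of all transcripts), 6 at 36 h (15.6%) and 7 at 48 h (15.9%), and at 36 h 0 were higher (15.6%). The median change of the members was -0.72, -0.84, -1.08 and -1.44 on the log2 scale, beside 0.02, 0.03, 0.02 and 0.03 over all transcripts tested. These comparisons share the 0 h libraries. Over the 5 time points together the moderated F-test called 9 of the members, all but Ndn, where it called 80% of all transcripts.

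**Figure D1:**
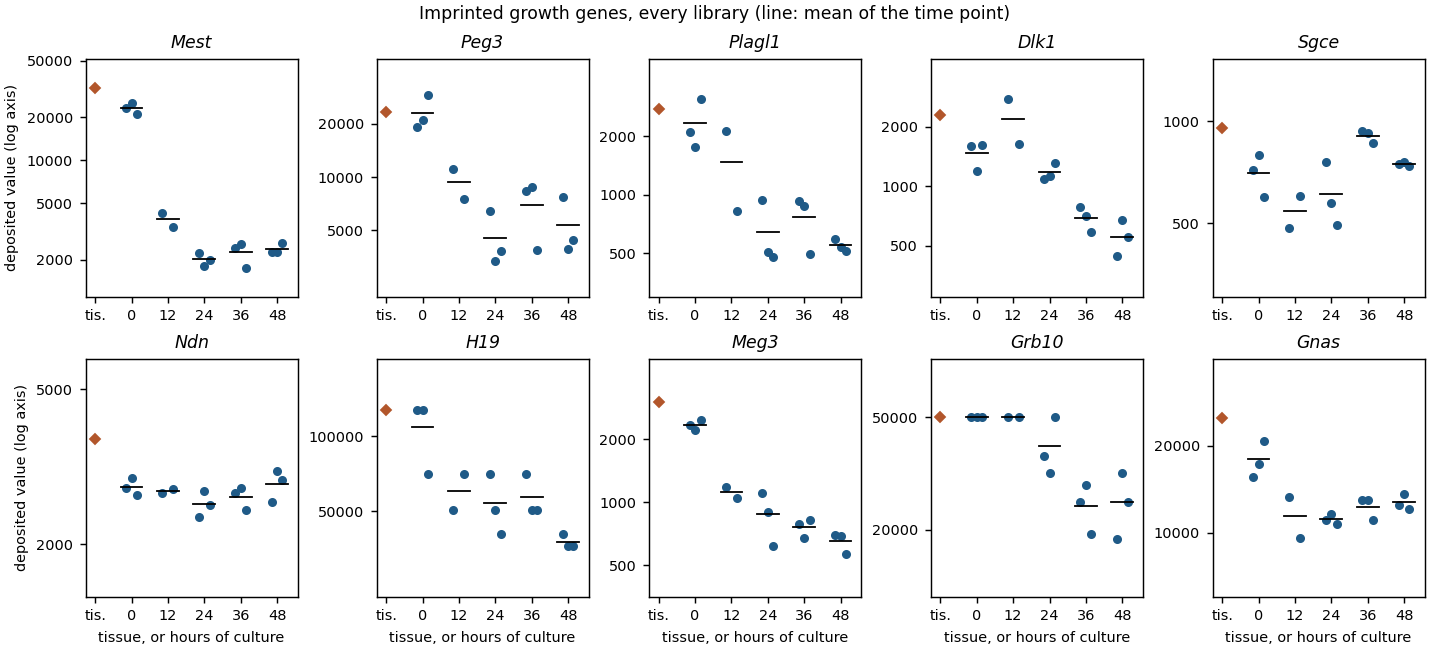
Deposited value (log axis) of each imprinted growth gene in the intact mesenchyme (diamond, n = 1) and in every mDMC library at 0, 12, 24, 36 and 48 h of culture (points), with the mean of each time point as a line. Mest, Peg3, Meg3 and Gnas sit lower in all 11 cultured libraries than in any 0 h library, and Ndn overlaps throughout.

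Markers of some other cell types had lower summed values in culture. The 10 dental mesenchyme markers were all present, with summed values of 95154 to 118118 at 0 h and 115963 to 124951 at 48 h. They did not move alike, since at 48 h all libraries lay below the 0 h range for 7 of them, above it for 1 and within or across it for 2. Those 2 were also transcription factor genes, Dlx1 (3770 to 4750 at 0 h, 2294 to 4892 at 48 h) and Dlx2 (324 to 751, then 389 to 521). Vim went from 28694 to 36335 at 0 h to 70528 in each 48 h library, again a step of the scale, while the odontogenic transcription factor genes Pax9 (3850 to 5959, then 619 to 1056), Lhx6 (3537 to 4933, then 1268 to 1437) and Msx1 (5030 to 5473, then 3238 to 3770) were among those below. The red cell markers (7 of 8 listed had a row) summed to 97818 to 150647 at 0 h and to 51 to 168 at 48 h, and the embryonic globin Hbb-bh1 was at 0 in every 36 h and 48 h library. The endothelial markers (6 of 6 listed had a row) summed to 7473 to 8758 at 0 h and 486 to 851 at 48 h. The leukocyte markers (5 of 9 listed) summed to 908 to 1270 at 0 h and 452 to 781 at 48 h. The epithelial markers (8 of 9 listed) summed to 1514 to 14067 at 0 h and 370 to 1229 at 48 h, and 14067 belonged to 0 h replicate 1 alone. Neuronal and glial markers (3 of 7 listed) summed to 979 to 1080 at 0 h, 1509 to 3143 at 24 h and 1053 to 2456 at 48 h. Muscle markers (4 of 5 listed) summed to 120 to 656 at 0 h, 383 to 2067 at 24 h, 525 to 2779 at 36 h and 541 to 1390 at 48 h. The part of these cells in the changes of the imprinted genes was not tested, and in whole cultures fewer cells of a type and less RNA per cell cannot be told apart. Without 0 h replicate 1 the number of members lower at 48 h was again 8.

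Mest encodes a membrane-bound protein of the alpha/beta hydrolase fold and is a marker of embryonic mesoderm. Its row is named by a transcript of 3 exons at chr6:30723547-30732714 (+, mm10), which ends upstream of the start site whose promoter is printed above. Its deposited value was 23306, 25128 and 20997 at 0 h, 4264 and 3404 at 12 h, 2239, 1821 and 2002 at 24 h, 2421, 2567 and 1759 at 36 h, then 2275, 2275 and 2605 at 48 h. The groups at 0 h and in culture were far apart, since the highest cultured value, 4264, lay below the lowest at 0 h, 20997. Mest fell by 2.60 on the log2 scale to 12 h (SE 0.16, limma adjusted p = 5.30e-08) and changed by -3.28 from 0 h to 48 h (SE 0.14, adjusted p = 8.64e-10), a 9.69-fold difference. No other member changed as much in any of the comparisons with 0 h. From 12 h to 24 h it fell again, by 0.92 (SE 0.16, adjusted p = 0.00510), a call that was lost without 12 h replicate 1 (-0.76, adjusted p = 0.0854). The 36 h values overlapped those at 24 h and at 48 h, while the 48 h libraries all lay slightly above those at 24 h, a difference that was not among the comparisons. In ranks within a library, 1 being the highest, Mest went from 71 to 91 at 0 h to 899 to 2865 in culture. The Copg2 gene overlaps the Mest gene by 912 bases on the opposite strand, and since it is not stated whether strand was used in counting, reads from the overlap cannot be told apart.

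Peg3 encodes a large zinc finger transcription factor. Its row transcript has 9 exons at chr7:6703892-6730421 (-). Peg3 had deposited values of 19292, 20997 and 29010 at 0 h, 11136 and 7518 at 12 h, 6445, 3378 and 3825 at 24 h, 8337, 8782 and 3881 at 36 h, then 7759, 3903 and 4396 at 48 h. All 11 cultured libraries lay below all 0 h libraries, both 12 h libraries lay above those at 24 h, and the 24, 36 and 48 h libraries overlapped. From 12 h to 24 h the difference was -1.07 (SE 0.39, adjusted p = 0.115). The change from 0 h was -1.31 at 12 h (SE 0.39, limma adjusted p = 0.0118), -2.38 at 24 h (SE 0.35, adjusted p = 5.69e-05) and -2.15 at 48 h (SE 0.35, adjusted p = 0.000115). Without 12 h replicate 2 the 12 h difference was -1.03 with an adjusted p of 0.106.

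Plagl1, also called Zac1, encodes a zinc finger transcription factor that restrains cell division and binds at other imprinted genes. Its row is named by a transcript annotated as processed, with no coding frame, at chr10:13090691-13124860 (+). In order of time its deposited value was 2111, 1757 and 3124 at 0 h, 2125 and 823 at 12 h, 940, 508 and 476 at 24 h, 929, 870 and 495 at 36 h, then 594, 537 and 515 at 48 h. The 12 h libraries were split, 1 inside the 0 h range and 1 well below it, and from 24 h on all libraries lay below that range. The 12 h difference of -0.77 (SE 0.40) did not pass (limma adjusted p = 0.118), and without 12 h replicate 1 it was -1.46 with an adjusted p of 0.0131. Plagl1 was lower at 24 h by -1.89 (SE 0.36, adjusted p = 0.000474) and at 48 h by -2.04 (SE 0.36, adjusted p = 0.000222), when its value was 23.5% of the 0 h mean.

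Dlk1 encodes a transmembrane protein of the Delta family that holds back differentiation of adipocyte and skeletal precursors. Its row is named by a retained-intron transcript at chr12:109452823-109453782 (+). For Dlk1 the deposited value was 1609, 1196 and 1628 at 0 h, 2759 and 1645 at 12 h, 1093, 1131 and 1311 at 24 h, 784, 706 and 588 at 36 h, then 442, 673 and 557 at 48 h. Dlk1 was the member with both 12 h libraries above the 0 h range, by a small margin in 1 of them. The 12 h difference of 0.54 (SE 0.23) missed the threshold (limma adjusted p = 0.0564), and it passed without 12 h replicate 2 (0.91, adjusted p = 0.00770), without 48 h replicate 1 (0.54, adjusted p = 0.0452) and without 48 h replicate 2 (0.54, adjusted p = 0.0495). At 24 h the values overlapped those at 0 h (-0.32, SE 0.20, adjusted p = 0.184). They were lower at 36 h (-1.09, SE 0.20, adjusted p = 0.000357) and at 48 h (-1.41, SE 0.20, adjusted p = 3.85e-05). Between neighbouring times Dlk1 fell by 0.86 from 12 h to 24 h (SE 0.23, adjusted p = 0.0363) and by 0.77 from 24 h to 36 h (SE 0.20, adjusted p = 0.0204). The first of these did not pass without 12 h replicate 1 (-0.49, adjusted p = 0.387), 24 h replicate 1 (-0.81, adjusted p = 0.0776), 24 h replicate 2 (-0.83, adjusted p = 0.118) or 36 h replicate 2 (-0.86, adjusted p = 0.0541), nor with the 12 h and 24 h libraries fitted alone (-0.86, adjusted p = 0.119). The second did not pass without 24 h replicate 2 (-0.80, adjusted p = 0.0511), 24 h replicate 3 (-0.69, adjusted p = 0.0805), 36 h replicate 2 (-0.79, adjusted p = 0.0577) or 36 h replicate 3 (-0.66, adjusted p = 0.0723).

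Sgce encodes epsilon-sarcoglycan, a membrane protein of the dystrophin complex. Its row transcript has 11 exons at chr6:4674350-4747204 (-). Sgce had deposited values of 720, 794 and 597 at 0 h, 485 and 603 at 12 h, 756, 575 and 493 at 24 h, 938, 922 and 862 at 36 h, then 750, 758 and 740 at 48 h. All 36 h libraries stood above those of the other mDMC times, and the 0 h and 48 h libraries overlapped. Sgce was higher at 36 h than at 0 h by 0.38 (SE 0.15, limma adjusted p = 0.0373) and higher than at 24 h by 0.60 (SE 0.15, adjusted p = 0.0157). The first call was lost without 0 h replicate 1 (0.40, adjusted p = 0.0570), 0 h replicate 3 (0.26, adjusted p = 0.149), 36 h replicate 1 (0.35, adjusted p = 0.0946), 36 h replicate 2 (0.36, adjusted p = 0.0857) or 36 h replicate 3 (0.41, adjusted p = 0.0518). The second was lost without 24 h replicate 2 (0.57, adjusted p = 0.0549), 24 h replicate 3 (0.46, adjusted p = 0.0692), 36 h replicate 1 (0.57, adjusted p = 0.0591) or 36 h replicate 2 (0.59, adjusted p = 0.0556). At 12 h the difference from 0 h was -0.37 (SE 0.17, adjusted p = 0.0726), which passed without 0 h replicate 3 (-0.48, adjusted p = 0.0276), 12 h replicate 2 (-0.53, adjusted p = 0.0482), 24 h replicate 1 (-0.37, adjusted p = 0.0307) or 24 h replicate 3 (-0.37, adjusted p = 0.0465). The 24 h difference of -0.22 (adjusted p = 0.198) passed without 24 h replicate 1 (-0.39, adjusted p = 0.0214). At 48 h it was 0.10 with a 95% confidence interval of -0.22 to 0.42.

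Ndn encodes necdin, a MAGE-family protein that restrains cell division. Its row covers the single-exon gene at chr7:62346569-62350262 (+). Its deposited values were 2787, 2968 and 2671 at 0 h, 2701 and 2777 at 12 h, 2351, 2736 and 2519 at 24 h, 2711, 2787 and 2452 at 36 h, then 2571, 3076 and 2918 at 48 h. Every time point overlapped the 0 h range. The differences from 0 h were -0.04, -0.15, -0.08 and 0.02 at 12, 24, 36 and 48 h, none past the threshold (limma adjusted p = 0.783, 0.147, 0.401 and 0.841). The 95% confidence interval at 48 h was -0.17 to 0.21, and the changes of Mest, Peg3, Plagl1, Dlk1, H19 and Meg3 at that time lay outside it. Since the ranks of Ndn moved in steps, this interval may be too narrow.

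H19 is a long non-coding RNA that is among the most abundant transcripts of the embryo. Its row transcript has 5 exons at chr7:142575529-142578143 (-). H19 had a deposited value of 127101, 127101 and 70596 at 0 h, 50420 and 70596 at 12 h, 70596, 50420 and 40633 at 24 h, 70596, 50420 and 50420 at 36 h, then 40633, 36369 and 36369 at 48 h. At 12, 24 and 36 h the highest library tied with the lowest at 0 h, and at 48 h all 3 lay below. The 0 h libraries at 127101 stood at the largest value of the scale, which 10 transcripts shared in every library, so that the size of the fall may be understated. H19 stood at rank 1 in 2 of the 0 h libraries and at rank 18 in the other, and at ranks 38 to 48 at 48 h. The differences from 0 h were -0.81 at 12 h (SE 0.29, limma adjusted p = 0.0292), -0.99 at 24 h (SE 0.26, adjusted p = 0.00434), -0.89 at 36 h (SE 0.26, adjusted p = 0.00800) and -1.47 at 48 h (SE 0.26, adjusted p = 0.000220). The 12 h call was lost without 0 h replicate 1 (-0.667, adjusted p = 0.0910), 0 h replicate 2 (-0.667, adjusted p = 0.0937) or 12 h replicate 1 (-0.57, adjusted p = 0.219), and when the 0 h and 12 h libraries were fitted alone (adjusted p = 0.0725).

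Meg3 is a long non-coding RNA made from the maternal copy of the cluster that holds Dlk1. Its row transcript has 3 exons at chr12:109541001-109545319 (+), starting just after the promoter printed above. Meg3 had deposited values of 2350, 2220 and 2481 at 0 h, 1179 and 1049 at 12 h, 1107, 897 and 620 at 24 h, 790, 676 and 826 at 36 h, then 698, 690 and 565 at 48 h. The replicates at 0 h were close together, and all 11 cultured libraries lay below them. Meg3 was lower by -1.08 at 12 h (SE 0.19, limma adjusted p = 0.000365), -1.46 at 24 h (SE 0.17, adjusted p = 7.31e-06), -1.62 at 36 h (SE 0.17, adjusted p = 2.45e-06) and -1.86 at 48 h (SE 0.17, adjusted p = 6.8e-07). None of its steps between neighbouring times after 12 h passed the threshold (adjusted p = 0.233, 0.542 and 0.608).

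Grb10 encodes an adaptor protein that damps signalling by the insulin and insulin-like growth factor receptors. Its row transcript has 4 exons at chr11:11967532-12026324 (-). The deposited value was 50368 in all 3 libraries at 0 h and both at 12 h, 36335, 31728 and 50368 at 24 h, 24980, 28694 and 19215 at 36 h, then 18471, 31728 and 24980 at 48 h. The rank was 29 in every 0 h and 12 h library and 59 to 119 at 36 h and 48 h, so that the equal early values are 1 step of the scale and do not show that the RNA level was equal. Grb10 was lower at 36 h by -1.07 (SE 0.21, limma adjusted p = 0.000545) and at 48 h by -1.04 (SE 0.21, adjusted p = 0.000656). At 24 h the difference of -0.38 (SE 0.21) did not pass (adjusted p = 0.128), and without 24 h replicate 3, the library still at 50368, it was -0.57 (adjusted p = 0.0315). From 24 h to 36 h it fell by 0.69 (SE 0.21, adjusted p = 0.0371), a call lost without 24 h replicate 3 (-0.50, adjusted p = 0.150), 36 h replicate 1 (-0.72, adjusted p = 0.0857) or 36 h replicate 3 (-0.53, adjusted p = 0.131), and with the 24 h and 36 h libraries fitted alone (adjusted p = 0.0530).

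**Figure D2:**
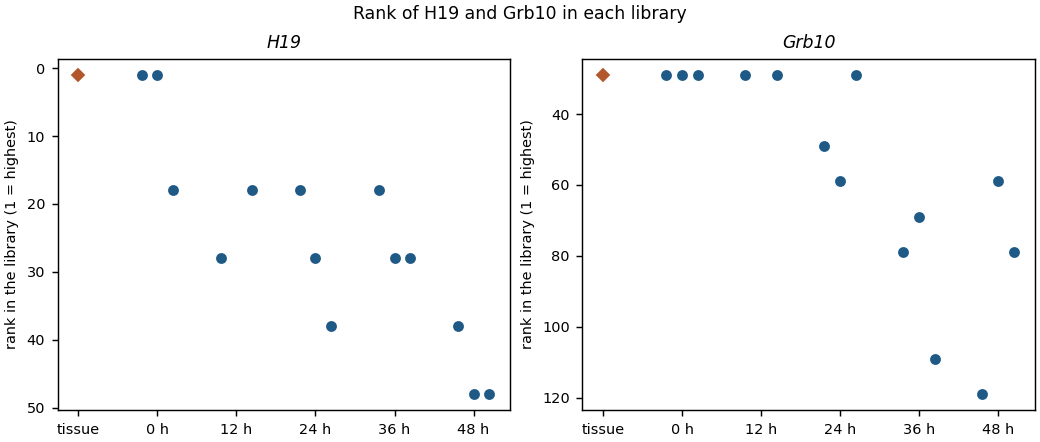
Rank of H19 and Grb10 in every library (1 is the highest value, axis inverted) in the tissue (diamond) and at 0 to 48 h of culture (points). H19 went from rank 1 in 2 of the 0 h libraries to ranks 38 to 48 at 48 h, and Grb10 from rank 29 to ranks 59 to 119.

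Gnas encodes the stimulatory G protein alpha subunit and, from its other promoters, further proteins. Its row is named by a transcript of 4 exons at chr2:174284320-174296895 (+), which starts at the upstream promoter of the locus and ends before the RefSeq start whose window begins at 174329756. Whether the values stand for the G protein transcript is therefore not given by the row's name. For Gnas the deposited value was 15608, 17371 and 20885 at 0 h, 13290 and 9597 at 12 h, 11073, 11622 and 10712 at 24 h, 12961, 12961 and 11073 at 36 h, then 12502, 13663 and 12073 at 48 h. All 11 cultured libraries lay below the 0 h range, and among the cultures the 48 h libraries all lay above those at 24 h. The differences were -0.66 at 12 h (SE 0.15, limma adjusted p = 0.00214), -0.68 at 24 h (SE 0.13, adjusted p = 0.000573), -0.54 at 36 h (SE 0.13, adjusted p = 0.00295) and -0.49 at 48 h (SE 0.13, adjusted p = 0.00540), each under 2-fold. Nespas, an RNA on the opposite strand that overlaps the Gnas gene by 11117 bases, was higher at 12 h by 1.46 (SE 0.26, adjusted p = 0.000389) and at 24 h by 1.42 (SE 0.23, adjusted p = 0.000146), with values from 45 to 73 at 0 h and 114 to 197 at those times. It was 0.63 higher at 36 h (SE 0.23, adjusted p = 0.0285), where the libraries overlapped those at 0 h, and the 48 h difference of 0.42 (SE 0.23) did not pass (adjusted p = 0.124). Gm20721, also with a row, overlaps Gnas by 16394 bases on the opposite strand. Without strand in the counting the reads of these overlaps cannot be told apart.

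**Figure D3:**
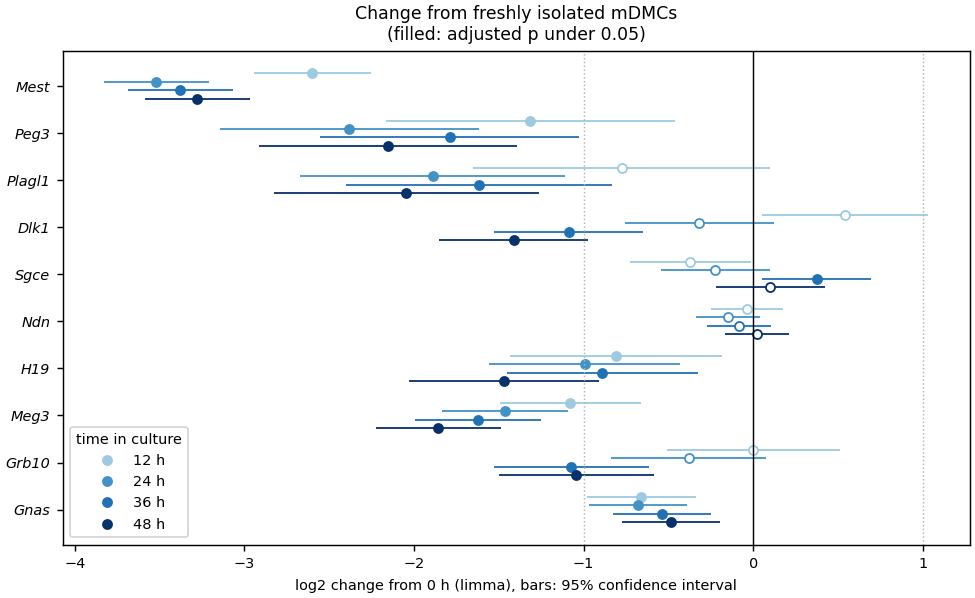
Change of each imprinted growth gene from 0 h at 12, 24, 36 and 48 h (log2 scale, limma, points) with the 95% confidence interval (bars). Filled points have an adjusted p under 0.05, and the dotted lines mark 2-fold. Mest stands furthest to the left at every time, and Ndn stays at 0 within its intervals.

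The steps between neighbouring times separate the later changes from those of the first hours, when Mest, Peg3, Meg3, Gnas and H19 were already lower. From 12 h to 24 h, 2 members fell (Mest and Dlk1) and 0 rose, where 3.67% of all transcripts fell and 4.59% rose; the call of Dlk1 was lost in the alternatives given above. From 24 h to 36 h, 2 fell (Dlk1 and Grb10) and 1 rose (Sgce), where 9.64% fell and 10% rose. None of these 3 steps was over 2-fold, a size that 1.76% of all transcripts passed downward and 2.41% upward at an unadjusted p under 0.05. The calls of these 3 steps, and that of Mest from 12 h to 24 h, were each lost when certain single libraries were left out, as given above. From 36 h to 48 h no member passed in limma, where 0.0248% of all transcripts were lower and 0% higher and 13.4% had an unadjusted p under 0.05 in either direction. The counts by parental origin at 48 h were 4 of 6 paternally expressed members lower (Mest, Peg3, Plagl1, Dlk1) and 3 of 3 maternally expressed ones (H19, Meg3, Grb10), with median log2 changes of -1.73 and -1.47, where 34% of all transcripts were lower and their median change was 0.03.

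Across the 14 mDMC libraries the member pairs with the most similar log2 profiles were Plagl1 with Peg3 (Pearson r = 0.94), Meg3 with Mest (0.92), Peg3 with Mest (0.90) and Grb10 with Dlk1 (0.90). The least similar pair was Dlk1 with Sgce (-0.70). The points share their libraries and time points, and 1135 transcripts had an r over 0.9 with Mest and 814 with Meg3, against 0 with Ndn. The 3 transcripts most like Mest were Pdcd4 (r = 0.993), Cd1d1 and Pabpc4l, and those most like Peg3 were Gpc3 (0.976), Golgb1 and Kcna6. For Plagl1 they were Dab2ip (0.973), Tet1 and Ttyh3, and for Dlk1 they were Mta1 (0.966), Pacs1 and Usp49. Sgce was nearest to Sdf2 (0.937), Zfp651 and Pgpep1, and Ndn to Aamp (0.803), Hnmt and Prepl. The nearest to Grb10 were the histone genes Hist1h3h (0.965), Hist1h1a and Hist1h3a. H19 was nearest to Mrfap1 (0.937), Dnajc14 and Top2b, and Gnas to C1qtnf6 (0.975), Fyco1 and Pcdhgc5. The transcript nearest to Meg3 had no matched gene (0.978), and Kcp and Sult5a1 followed.

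The intact mesenchyme had 1 library and is given without a test. Its deposited value lay above the 0 h range for 6 members and below it for 0, where 29.7% of all transcripts lay above and 32.0% below. Those above were Mest (31993), Dlk1 (2288), Gnas (25036), Meg3 (3029), Ndn (3730) and Sgce (955). Peg3 (23306), Plagl1 (2753), H19 (127101) and Grb10 (50368) lay inside it. The log2 differences of tissue from the 0 h mean ran from 0 for Grb10 to 0.64 for Dlk1 with a median of 0.39, beside -0.01 over all transcripts. In the same library the muscle markers summed to 3519, the leukocyte markers to 1951 and the endothelial markers to 10393, each above its 0 h range, while the red cell markers (135541) and epithelial markers (5059) lay within theirs. The dental mesenchyme markers summed to 95004, just below their 0 h range, and 7 of the 10 lay below it singly. The part of these cells in the differences was not tested.

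Of a list of 69 other imprinted genes, 43 had a row and were tested. Imprinting can depend on the tissue, as for Grb10, and whether each of the 43 is imprinted in dental mesenchyme was not examined. At 12, 24, 36 and 48 h, 16, 22, 24 and 24 of them were lower than at 0 h and 6, 9, 12 and 11 were higher, where 28.3%, 31.8%, 34% and 34% of all transcripts were lower and 29.9%, 35%, 36% and 37.1% higher. Their median log2 change was -0.33, -0.47, -0.68 and -0.59, beside 0.02, 0.03, 0.02 and 0.03 over all transcripts. Over 2-fold changes at 48 h were 16 downward and 3 upward (15.8% and 16.1% of all transcripts). The largest were Klf14 (-5.16, SE 0.56, limma adjusted p = 2.8e-06), Begain (-3.66), Asb4 (-3.64), Dio3 (-3.57), the proteolipid gene Nnat (-3.22), the proteoglycan gene Dcn (-2.97), Ppp1r9a (-2.73) and the adaptor gene Gab1 (-2.67), each past the threshold with no overlap between 0 h and 48 h. Klf14, a transcription factor gene next to Mest, was low throughout, with 70, 143 and 79 at 0 h and 2, 1 and 2 at 48 h. At 12 h it stood at 6 and 7, so that it passed the filter on low values only through its 0 h libraries. Its call as lower was thus favoured in advance, and the size of its change depends on the 1 added to each value.

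**Figure D4:**
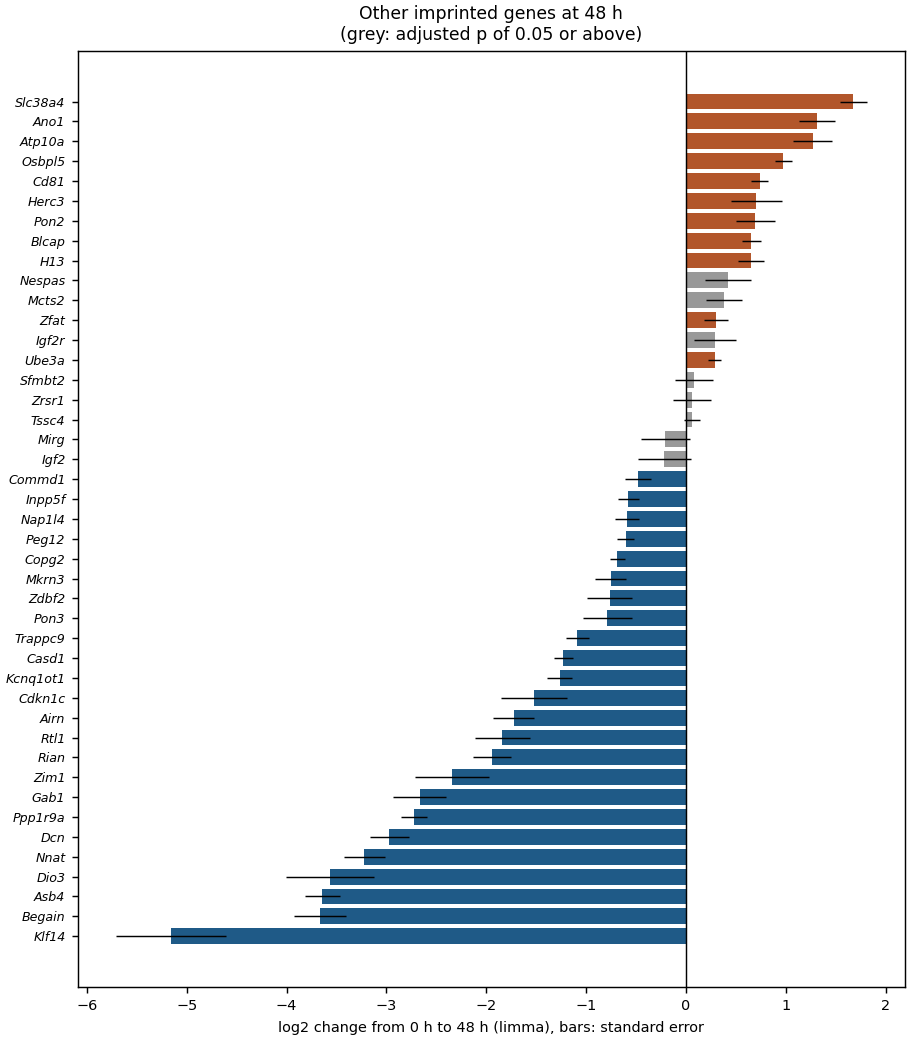
Change from 0 h to 48 h of the 43 other imprinted genes that had a row (log2 scale, limma; bars start at 0, error bars are standard errors). Blue and orange bars are lower and higher with an adjusted p under 0.05 (24 and 11 genes), and grey bars did not pass. Klf14, which passed the filter on low values only through its 0 h libraries, is the lowest at -5.16. Slc38a4 is the highest at 1.67.

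Genes in the clusters of the members did not all follow them. Igf2, the growth factor gene beside H19, had deposited values of 12945, 10427 and 13280 at 0 h and 11599, 9788 and 10075 at 48 h. These overlapped, and the difference of -0.22 (SE 0.27) did not pass (limma adjusted p = 0.484), while H19 was lower by -1.47. In the Dlk1-Meg3 cluster on chromosome 12, the paternally expressed Rtl1 (-1.84, SE 0.28) and Dio3, which encodes the enzyme that inactivates thyroid hormone (-3.57, SE 0.44), and the maternal non-coding Rian (-1.94, SE 0.19) were lower at 48 h (adjusted p = 5.8e-05, 9.6e-06 and 1.1e-06). Mirg, the non-coding RNA furthest along the maternal strand, had 528, 520 and 441 at 0 h and 378, 455 and 457 at 48 h (-0.21, SE 0.24, adjusted p = 0.458). At 24 h Mirg was higher by 0.61 (SE 0.24, adjusted p = 0.0391), with 980, 846 and 525, of which the lowest lay inside the 0 h range, when Meg3 and Rian were both lower by -1.46. Near Mest, Copg2 was lower at 48 h by -0.69 (SE 0.08, adjusted p = 3.8e-06), and beside Peg3, Zim1 was lower by -2.35 (SE 0.37, adjusted p = 8.7e-05).

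**Figure D5:**
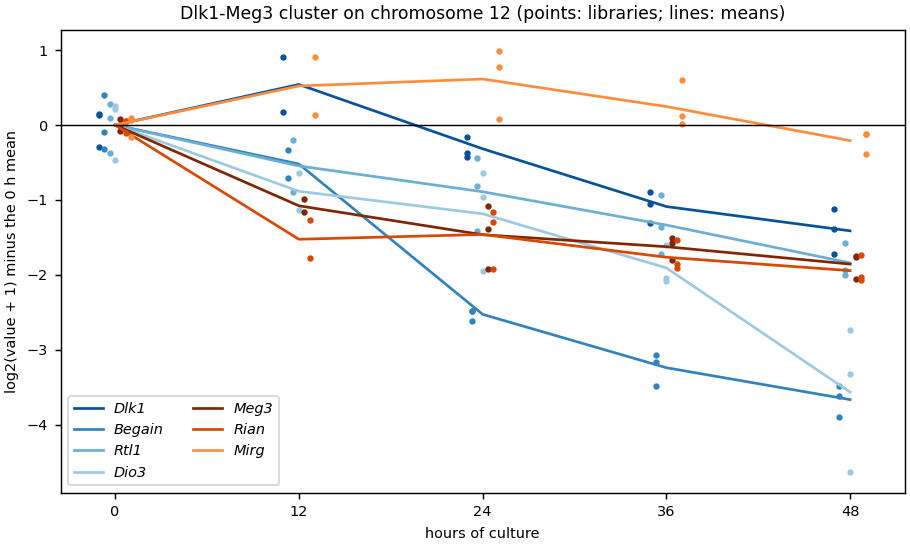
Genes of the Dlk1-Meg3 cluster: log2(value + 1) minus the 0 h mean of the gene against hours of culture, with points for libraries and lines for means, blue for the protein-coding genes and orange to brown for the non-coding RNAs. Meg3 and Rian run together to -1.86 and -1.94 at 48 h, Mirg ends at -0.21, and Dlk1 starts to fall after 12 h.

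Around Ndn, which did not pass at any time, Mkrn3 (-0.75, SE 0.16, limma adjusted p = 0.000783) and Peg12 (-0.61, SE 0.09, adjusted p = 4.9e-05) were lower at 48 h and the ubiquitin ligase gene Ube3a was higher (0.29, SE 0.06, adjusted p = 0.00111). Atp10a, a phospholipid transporter gene further along the same domain, was higher too, with 103, 175 and 145 at 0 h and 272, 369 and 370 at 48 h (1.27, SE 0.19, adjusted p = 6.63e-05). Around Sgce, Ppp1r9a (-2.73), Asb4 (-3.64), Casd1 (-1.23) and Pon3 (-0.79) were lower and Pon2 (0.69) was higher. Ppp1r9a went from 983, 912 and 1053 at 0 h to 166, 143 and 135 at 48 h, and the 0 h and 48 h libraries of Sgce overlapped.

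Factors that act on imprints were followed as a further list. It holds the maintenance methyltransferase Dnmt1 and its partner Uhrf1, but also Tet1, Tet2 and Tet3, enzymes that act on methylated cytosine. Its counts therefore give no direction of effect on imprints. Of 27 listed, 24 had a row, and 13, 14, 18 and 19 were lower than at 0 h at 12, 24, 36 and 48 h, with 1 higher at each time, Eed (1.18 at 48 h, SE 0.10, limma adjusted p = 2.46e-07). All transcripts were lower in 28.3%, 31.8%, 34% and 34% and higher in 29.9%, 35%, 36% and 37.1%. The median log2 change of the list was -0.33, -0.53, -0.66 and -0.73, beside 0.02, 0.03, 0.02 and 0.03 over all transcripts. The largest changes at 48 h were in Tet1, an enzyme that oxidises methylated cytosine, which went from 654, 703 and 1189 to 177, 143 and 176 (-2.31, SE 0.30, limma adjusted p = 1.5e-05), and in Dnmt3a, the de novo methyltransferase, which went from 9591, 8938 and 10081 to 2032, 2104 and 1889 (-2.25, SE 0.10, adjusted p = 1.05e-09). Both were lower in every 48 h library than in any 0 h library. Tet3 (-1.67, SE 0.28) and Uhrf1 (-1.34, SE 0.09) followed. Zfp57, whose hexamer is marked in the Mest, Plagl1 and Meg3 promoters, had 658, 568 and 563 at 0 h and 498, 443 and 491 at 48 h (-0.32, SE 0.14), with an adjusted p of 0.0559. Trim28, the corepressor that Zfp57 recruits, was lower (18515 in all 3 libraries at 0 h, and 8729, 10434 and 11063 at 48 h; -0.88, SE 0.09, adjusted p = 1.5e-06), and its equal values at 0 h are a step of the scale, so that this SE is too small. DNA methylation was not measured in these samples. The part of the red cell and endothelial markers described above in the changes of these lists was not tested.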

How the data were processed

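The authors trimmed adaptors, aligned the reads to Ensembl transcripts of mm10 with bowtie, estimated expression with RSEM (version 1.1.21 in the submitters' processing notes) and tested with DESeq2. The deposited values are whole numbers labelled as CPM but already normalised to a shared distribution, and were treated as a normalised score, since the library totals, 21357605 to 21365980, are not those of CPM. How they were normalised, whether a row covers 1 transcript or its whole gene, whether strand was used in counting, and the depth are not given in the sources used here. Transcripts were matched to genes through GENCODE vM21 (11973 of 12089 matched).

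A transcript was kept if 2 or more libraries held it at 1 ppm of their summed values or above (12079). Groups came from the labels. limma 3.58.1 (R 4.3.3; eBayes with a trend) was fitted to log2(value + 1) over the 14 mDMC libraries, with 1 mean per time point, a two-sided moderated test and Benjamini-Hochberg adjustment over all 12079, and was tested on simulated data. Fold changes on this scale understate those of low values. DESeq2 was not run because no counts were used here. The tissue (1 library) was left out of the fit. The members, gene lists and markers were chosen with earlier results of these data known. Named were every member, imprinted genes in the same cluster as a member, and the 3 most correlated transcripts per member. Also named were the 8 other imprinted genes and 4 factors acting on imprints with the largest 48 h change past the threshold without overlap. Slc38a4, Nespas, Atp10a, Eed, Zfp57 and Trim28 were chosen after their values were seen. Alternatives were other pseudocounts (0.1, 10), filters and scalings, fits of the compared time points alone, a replicate block, the 2-fold threshold of the methods and leaving out each replicate.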

Additional observations from a re-analysis of the deposited data

How the results depend on the processing

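The number of members lower than at 0 h stayed at 8 at both 36 h and 48 h under each alternative run except an unadjusted p with a change over 2-fold (6 and 7), and leaving out 1 library at a time gave 4 to 6 at 12 h and 6 to 7 at 24 h. The counts that moved by over 1.5 times were small ones. With an unadjusted p and a change over 2-fold, 3 members were lower at 12 h (main value 5), 0 were higher at 36 h than at 0 h or at 24 h (main value 1 in each) and 0 were lower at 36 h than at 24 h (main value 2). With only the compared time points fitted, 1 was lower at 24 h than at 12 h and 1 at 36 h than at 24 h (main value 2 in each). Leaving out 1 library gave 0 to 3 members lower at 24 h than at 12 h, 0 to 2 lower at 36 h than at 24 h, 0 to 1 higher at 36 h than at 24 h, 0 to 1 higher at 36 h than at 0 h and 0 to 1 higher at 12 h than at 0 h. Cyclic loess added calls for Ndn (-0.23, limma adjusted p = 0.0287) and Grb10 (-0.53, adjusted p = 0.0297) at 24 h. The causes were not tested.

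Same-numbered libraries correlated from -0.25 to 0.32 (median 0.067, 26 pairs) in their deviations from the time-point means. Pairs with different numbers ran from -0.48 to 0.48 (median -0.038, 52 pairs). Of 14 libraries, 10 correlated best with a library of their own number, a weak hint from the data. The labels give the numbers no meaning. With the replicate block, 1 member was lower at 24 h than at 12 h (Dlk1 missed at -0.87, adjusted p = 0.0505) and Sgce passed at 12 h (-0.44, adjusted p = 0.0260), and it changed no other call of a member.

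The direction turned in 6 of the alternative values against 0 h and 14 between neighbouring times, none past the threshold in either fit. Ndn from 0 h to 48 h was -0.012 with median-ratio scaling and -0.041 with cyclic loess, and Grb10 from 36 h to 48 h was -0.013 with cyclic loess. The others came from leaving out 1 library. The ranges were -0.071 to 0.0055 for Ndn at 12 h, -0.035 to 0.094 for Ndn and -0.013 to 0.19 for Sgce at 48 h against 0 h. From 12 h to 24 h they were -0.43 to 0.058 for H19, -0.26 to 0.21 for Gnas and -0.022 to 0.30 for Sgce. From 24 h to 36 h they were -0.081 to 0.32 for H19 and -0.39 to 0.030 for Meg3. From 36 h to 48 h they were -0.026 to 0.088 for Gnas, -0.16 to 0.23 for Grb10 and -0.067 to 0.21 for Mest. The unknown depth limits what the lowest genes, such as Klf14, can show.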
